A study of Rattus norvegicus with 8 samples.

Results

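The transcription factors Atf3, Jun, Junb, Fos, Egr1, Sox11, Klf4, Klf6, Klf7 and Klf9 were examined in purified retinal ganglion cells (RGCs) of the rat, which send the axons of the optic nerve to the brain. The members were every spot whose symbol in the probe annotation was one of these 10 genes, which gave 36 of the 45220 spots of the array. Of the 36 spots, 32 carried a value on all 8 arrays, and all 10 genes had at least 1 such spot. The comparison was between eyes under chronic ocular hypertension (COH), in which raised eye pressure models glaucoma, and the normotensive fellow eyes of the same rats. There were 4 COH samples and 4 control samples, forming 4 pairs, and each sample was RNA from the pooled eyes of a group of animals. The sources used here do not give the strain, age or sex of the rats, how COH was induced, how long it lasted, how the RGCs were purified, or how many animals made a pool. Each sample had its own array, on which it was hybridised together with Rat Universal Reference RNA, and every level below is the log2 ratio of the sample to that reference.

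These factors act early in the response of a neuron to axon damage. Kinases that sense damage in the axon, among them DLK (Map3k12) and LZK (Map3k13), signal through JNK to the cell body, where Jun is phosphorylated and Atf3 is induced. The products of both genes bind DNA as dimers of basic leucine zipper proteins, and in rodent RGCs they have been tied to cell death as well as to axon regrowth. Fos and Junb belong to the same protein class, and Egr1 is an immediate early zinc finger gene. Members of the KLF family, also zinc finger proteins, differ in their effect on axon growth of rodent RGCs, with Klf4 and Klf9 known as suppressors and Klf6 and Klf7 as promoters. Sox11 is a factor of RGC development that is silenced in most mature neurons.

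No member gene passed the adjusted threshold in the comparison of COH with control cells. In a limma fit with the pair as a block, adjusted over all 18595 genes and unnamed spots tested, their adjusted p-values lay between 0.915 and 0.996 and their unadjusted p-values between 0.186 and 0.971. Over the whole array 0 of the 18595 items (0%) were called at an adjusted p under 0.05, and 880 had an unadjusted p under 0.05. The study's rule, an unadjusted p under 0.05 with a change of at least 1.5-fold, applied here to the limma p, took none of the 10 genes. It took 4.73% of all items, 2.57% as higher and 2.17% as lower in COH cells. None of the 10 differed in the same direction in 4 of 4 pairs, against 13.0% of all items, of which 8.38% were higher and 4.66% lower. In none were the COH and control arrays without overlap, against 2.52% of all items, 1.58% with COH higher and 0.946% with COH lower. The sizes of the differences ran from -0.62 (Sox11) to 0.57 (Fos) on the log2 scale. Their median absolute size was 0.134, beside 0.333 over all items. These sizes are not from like sets. Of the 10 genes, 9 had a spot that carried no shared value, a sign of low signal described below. Of all items 44.5% had one. A bulk sample does not tell fewer cells of a type from less RNA per cell.

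**Figure D1:**
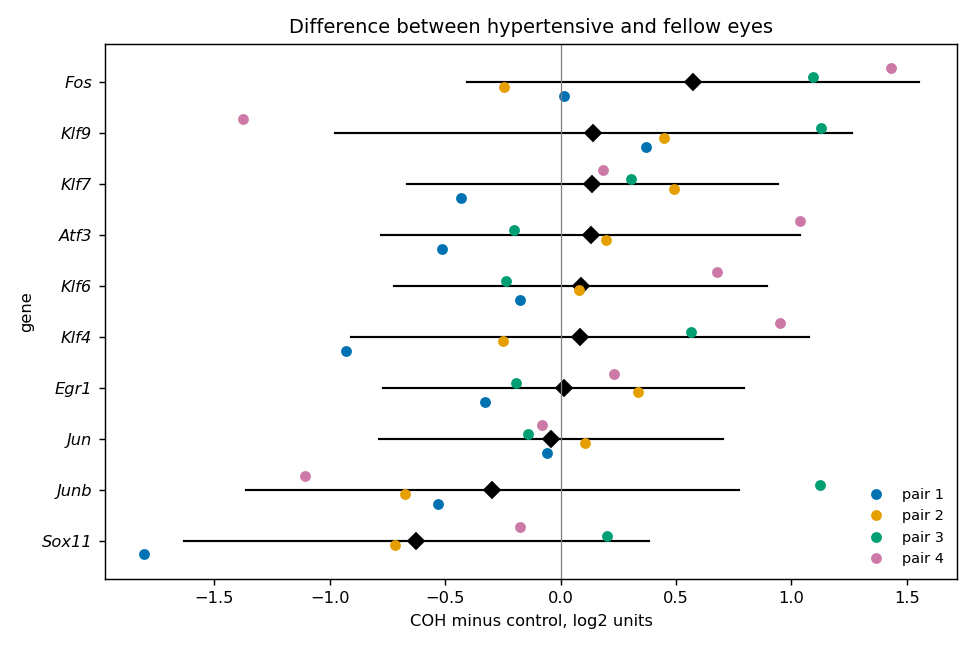
The COH minus control difference of each gene in log2 units is shown as a black diamond with its 95% interval from the moderated fit (line), and the 4 coloured points are the within-pair differences. Every interval includes 0, the points of each gene lie on both sides of 0, and Fos (0.57) and Sox11 (-0.62) lie farthest out.

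The comparison gave limits on how large a change could be. For Jun, Egr1, Klf6 and Klf7 the 95% interval of the difference stayed within 1 log2 unit of 0, that is, within a 2-fold change. That is 4 of 10 genes, against 15.4% of all items. These 4 were also the genes with more than 1 complete spot, namely 10 for Jun and Egr1, 4 for Klf6 and 2 for Klf7, and their values were averages over those spots. For the other 6 genes, which rested on 1 complete spot each, the interval reached past a 2-fold change in at least 1 direction. The median standard error of the 10 differences was 0.397, beside 0.415 over all items. Whether these limits held with 1 pair left out depended on the gene and on the pair. Without pair 1 the interval reached -1.03 for Jun, 1.14 for Egr1, 1.23 for Klf6 and 1.32 for Klf7. Without pair 4 it reached 1.11 for Klf7 and stayed within 1 log2 unit for Jun, Egr1 and Klf6.

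Levels against the reference RNA were read first, with no test, since every array had the RGC sample in Cy5 and the reference in Cy3. Atf3, Junb, Fos, Egr1, Klf4 and Klf6 lay below the reference on all 8 arrays, as did 34.2% of all items. Sox11 lay above it on all 8 arrays, as did 17.0% of all items. Jun, Klf7 and Klf9 lay on both sides. A ratio of this kind depends on the amount of the transcript in the reference as much as in the cells, so the genes cannot be ranked by it.

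**Figure D2:**
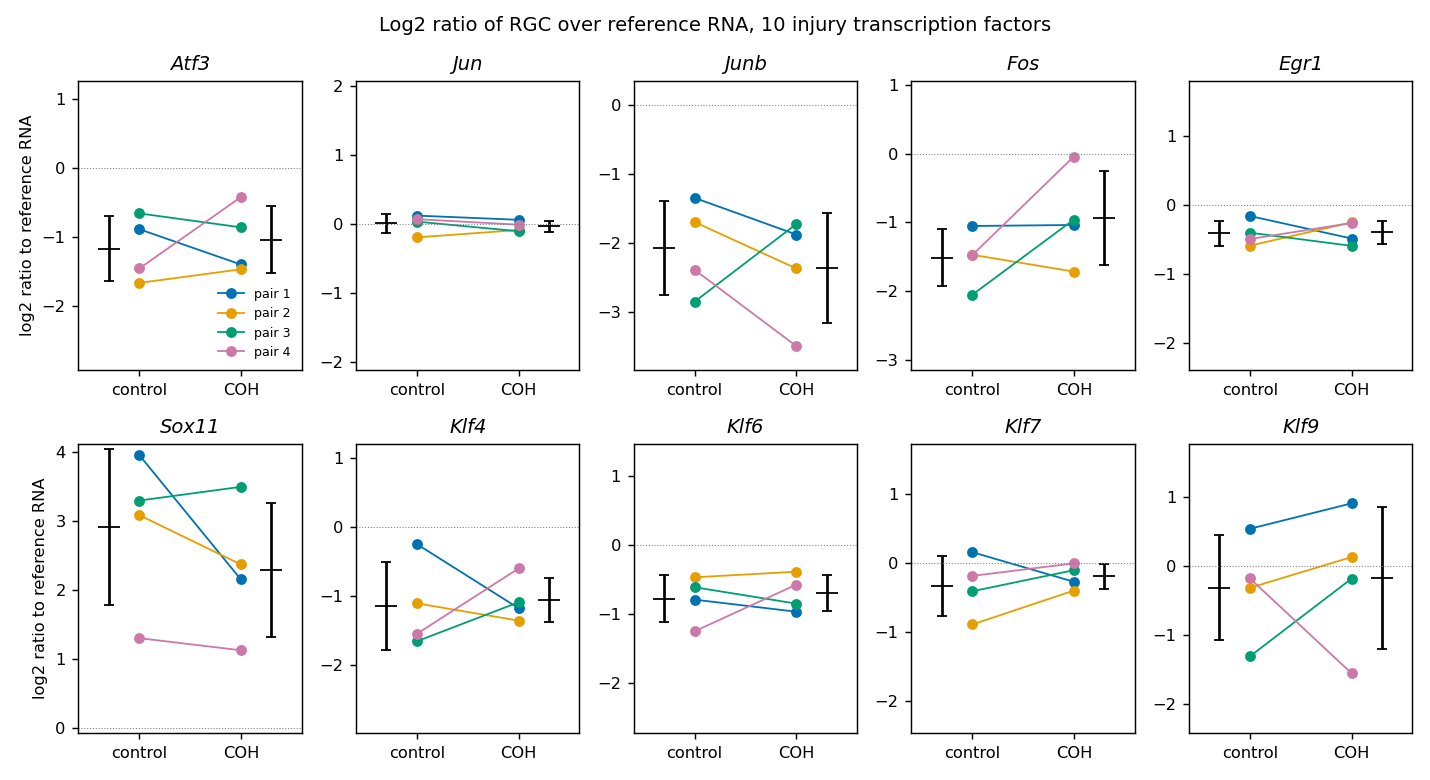
Each panel plots the log2 ratio of RGC over reference RNA of 1 gene in control and COH cells, with a coloured line per pair and the mean with its SD (n = 4) in black beside each group. Every panel spans the same number of log2 units; the 4 lines of a gene do not all run the same way in any panel, and those of Jun and Egr1 are the closest together.

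Atf3, a stress-induced leucine zipper factor that is low in uninjured neurons and a common marker of axotomy, had 1 spot. Its log2 ratio in control cells was -0.88, -1.66, -0.65 and -1.45 in pairs 1 to 4, and in COH cells -1.40, -1.47, -0.86 and -0.42. The groups overlapped, and only the COH array of pair 4 lay above all control arrays. The mean was -1.16 ± 0.47 (SD, n = 4) in control and -1.03 ± 0.49 in COH cells. The difference of 0.13 ± 0.38 (SE) had a 95% interval from -0.78 to 1.04, with 2 of 4 pairs higher and a limma adjusted p of 0.974. Without pair 4 it was -0.17, so its sign rested on that pair.

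Jun, the AP-1 subunit phosphorylated by JNK, was the most precisely measured of the 10. Averaged over its 10 spots, its log2 ratio was 0.12, -0.20, 0.03 and 0.07 in control cells and 0.06, -0.09, -0.11 and -0.01 in COH cells. All 8 arrays lay within a narrow band around 0, and the groups overlapped. The mean was 0.01 ± 0.14 (SD, n = 4) in control and -0.04 ± 0.08 in COH cells. The difference was -0.04 ± 0.31 (SE), a ratio of 0.971-fold, with 3 of 4 pairs lower and a limma adjusted p of 0.989. The interval of the moderated fit, which draws the spread of a gene towards that of all genes, ran from -0.79 to 0.70, or 0.579-fold to 1.63-fold. With the spread of Jun alone, from the 4 within-pair differences, it ran from -0.21 to 0.12. Only 0.403% of all items had a standard error as small as that of Jun or smaller.

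Junb, an AP-1 subunit with weaker activating properties than Jun, had 1 spot, below the reference on all 8 arrays. It was at -1.35, -1.70, -2.85 and -2.39 in control cells and at -1.88, -2.37, -1.73 and -3.50 in COH cells. Pairs 1, 2 and 4 were lower in COH cells and pair 3 was higher by 1.13. The difference was -0.30 ± 0.45 (SE; 95% interval -1.36 to 0.77; limma adjusted p 0.954). Without pair 3 it was -0.77, the most negative value in any setting tried, and without the COH 4 array, with no pairing term, it was 0.08.

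Fos, the AP-1 partner that is induced within minutes by depolarisation and many other stimuli, had the highest difference among the 10. Its complete spot was at -1.05, -1.47, -2.05 and -1.48 in control cells and at -1.04, -1.72, -0.96 and -0.04 in COH cells. Pairs 3 and 4 differed by 1.09 and 1.43, pair 1 by 0.01 and pair 2 by -0.24, so the positive mean came from 2 of 4 pairs. The difference was 0.57 ± 0.41 (SE), a ratio of 1.49-fold with an interval from 0.756-fold to 2.93-fold, and a limma adjusted p of 0.915. In size it exceeded 73.4% of all items. Without pair 3 it was 0.40 and without pair 4 it was 0.29. A second spot, annotated to Fos through another accession, carried a value on 3 arrays alone, at 3.34 and 3.15 in control 3 and 4 and at 3.09 in COH 2, and entered no comparison. Its values on control 4 and COH 2 were each shared exactly by at least 3 spots of the array, which was taken here as a sign of low signal.

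Egr1, a zinc finger gene of the immediate early response, had 10 spots, all complete. Their mean was -0.16, -0.59, -0.40 and -0.49 in control cells and -0.48, -0.25, -0.59 and -0.26 in COH cells. The groups overlapped, with pairs 1 and 3 lower and pairs 2 and 4 higher in COH cells. The difference was 0.01 ± 0.33 (SE; 95% interval -0.77 to 0.79; limma adjusted p 0.996). It was the smallest among the 10, below 98% of all items in size, and its sign changed with small changes of the settings. One spot stood apart from the other 9, at 3.03 on control 1 and at 1.62 on COH 2, while it lay between -0.81 and -0.24 on the remaining 6 arrays. Without that spot, left out after its values were seen, the difference was 0.07.

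The 10 spots each of Jun and Egr1 showed how evenly an array measured 1 gene across its features, whose numbers were taken to follow their place on the array. On 7 of the 8 arrays the 10 spots of Jun had an SD from 0.111 to 0.291, and on the COH 4 array one of 0.521. On that array Jun was at -0.55 to 0.02 at 7 spots of lower feature number, and at 0.86, 0.83 and 0.21 at the 3 of highest number. Its average on COH 4 (-0.01) was therefore made of spots on both sides of the other arrays. Among all spots the deviation of COH 4 from the median array ranged from -0.61 to 0.45 between runs of 1700 consecutive features, a range of 1.06, beside 0.131 to 0.825 on the other arrays. With this trend removed from all arrays the SD of the Jun spots on COH 4 was 0.262, inside the range of the other 7 (0.152 to 0.304), while on control 3 it was 0.259 in place of 0.111. The SD of the Egr1 spots on COH 4 was 0.761 before and 0.646 after the trend was removed. Egr1 spots with feature numbers 5565 and 5610, which fell in the same run, were at -1.26 and 0.32 on COH 4, so that features of a run did not all deviate alike. The part of position in the differences of the 10 genes was not tested.

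**Figure D3:**
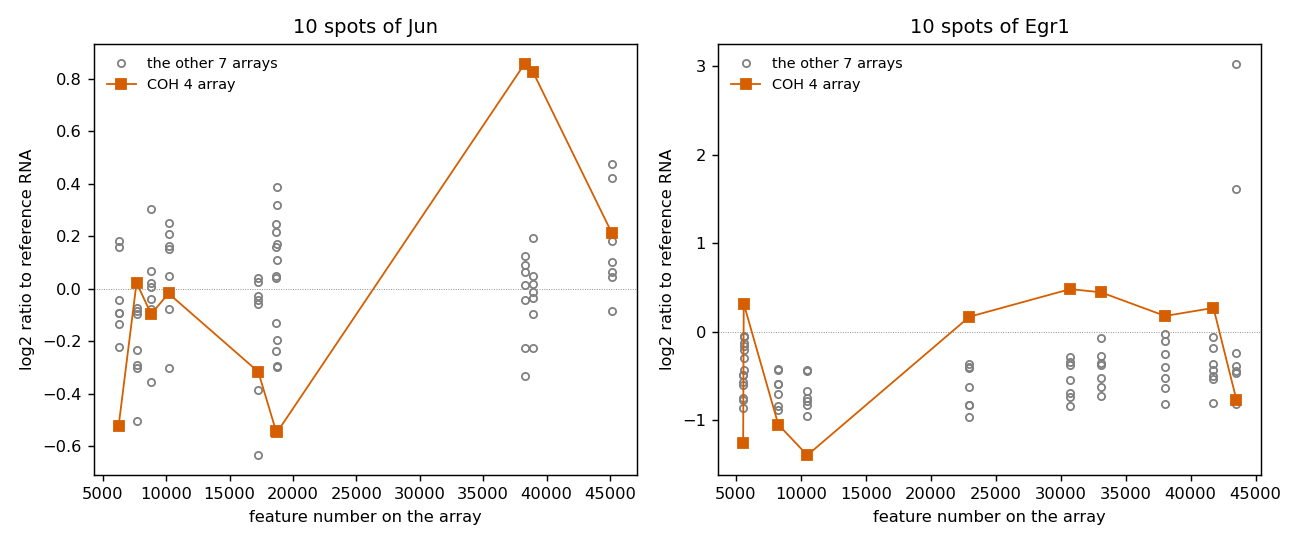
The log2 ratio of each of the 10 spots of Jun (left) and Egr1 (right) is plotted against its feature number, taken to follow its place on the array, with the COH 4 array in orange and the other 7 arrays in grey. On COH 4 Jun goes from -0.55 at a lower to 0.86 at a higher feature number, and Egr1 has 1 spot far above the rest on control 1 (3.03) and COH 2 (1.62).

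For genes with 1 spot the trend was read at that spot. The Fos spot lay in a run of features where COH 4 was 0.45 above the median array, and the Junb spot in one where it was 0.61 below. With the trend removed from all arrays, the difference of Fos went from 1.43 to 0.997 in pair 4 and from 1.09 to 0.25 in pair 3. That of Junb in pair 4 went from -1.11 to -0.52. The difference over all pairs then was 0.26 for Fos and -0.13 for Junb, and 4 of the 10 genes were higher, where 52.6% of all items were. Without the removal 7 of the 10 were higher, where 56.2% of all items were. Without pair 4, which takes out COH 4 and its control, 3 of the 10 were higher, where 58.0% of all items were.

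The direction of the 10 genes was also read pair by pair. In pair 1, 8 of the 10 genes were lower in COH than in control cells, with a median of -0.38, while 44.0% of all items were higher in that pair and their median was -0.10. In pairs 2, 3 and 4, 6 of the 10 genes were higher, with medians of 0.09, 0.25 and 0.21. Of all items 50.1%, 66.7% and 52.5% were higher in these pairs. In pair 3 the median over all items was 0.34, above the median of the 10 genes. Over all pairs the median of the 10 differences was 0.08, and that of all items was 0.08 too.

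Sox11, an HMG-box factor of the SoxC group that drives neuronal differentiation, had the lowest difference among the 10. Its complete spot was at 3.96, 3.09, 3.30 and 1.30 in control cells and at 2.15, 2.37, 3.50 and 1.12 in COH cells. The groups overlapped over most of their range, and both arrays of pair 4 lay below all others. The mean was 2.91 ± 1.14 (SD, n = 4) in control and 2.29 ± 0.97 in COH cells. The difference was -0.62 ± 0.42 (SE), a ratio of 0.649-fold with an interval from 0.322-fold to 1.30-fold and a limma adjusted p of 0.915. Of the pairs, 3 of 4 were lower, and pair 1 alone contributed -1.81. Without pair 1 the difference was -0.23. The complete spot had on COH 1 a value that at least 3 spots of the array shared exactly. The second spot of Sox11 had such shared values on all 7 arrays where it had a value, and a mean within-pair difference of -0.17 over 3 pairs.

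Klf4, one of the suppressors of axon growth, had 1 spot. It was at -0.25, -1.11, -1.66 and -1.55 in control cells and at -1.18, -1.36, -1.10 and -0.60 in COH cells. The control arrays enclosed all COH arrays, with pairs 1 and 2 lower and pairs 3 and 4 higher. The difference was 0.08 ± 0.42 (SE; 95% interval -0.91 to 1.08; limma adjusted p 0.984). Without pair 1 it was 0.42, without pair 3 it was -0.077 and without pair 4 it was -0.20, so its sign depended on which pairs were included.

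Klf9, the other suppressor, had 1 complete spot with a wide spread between samples. It was at 0.54, -0.32, -1.31 and -0.18 in control cells and at 0.91, 0.13, -0.19 and -1.56 in COH cells. Pairs 1, 2 and 3 were higher in COH cells, and pair 4 was lower by more than any of these. The difference was 0.14 ± 0.47 (SE; 95% interval -0.98 to 1.26; limma adjusted p 0.975), and without pair 4 it was 0.65. Both further spots of Klf9 had a value on 7 arrays, shared with other spots on all 7, and mean within-pair differences of -0.54 and -1.51 over 3 pairs. With these spots included the difference of Klf9 was -0.58 (limma adjusted p 0.906), so its direction depended on which spots were taken.

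Klf7, a promoter of axon growth, had 2 complete spots of the same transcript. Their average was 0.16, -0.89, -0.41 and -0.18 in control cells and -0.27, -0.40, -0.10 and -0.002 in COH cells. The COH arrays lay inside the range of the control arrays, and 3 of 4 pairs were higher. The difference was 0.14 ± 0.34 (SE; 95% interval -0.67 to 0.94; limma adjusted p 0.971). Taken alone, the spots differed by -0.07 and 0.35.

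Klf6, the second promoter of axon growth, had 4 complete spots that disagreed in level. Their means were 0.69, -1.46, -2.59 and 0.25 in control cells and 0.41, -1.38, -2.20 and 0.40 in COH cells. The spots at 0.69 and -2.59 had shared values on 8 and 6 of the 8 arrays, while the remaining spots had distinct values on all 8. The average over the spots was -0.79, -0.46, -0.61 and -1.25 in control cells and -0.96, -0.38, -0.85 and -0.57 in COH cells, where COH arrays lay inside or just above the control range. The difference was 0.09 ± 0.34 (SE; 95% interval -0.72 to 0.90; limma adjusted p 0.981). It was 0.11 with the 2 spots of distinct values and -0.07 with the median of the 4 spots. Across the 32 complete spots of the 10 genes, 29 had distinct values on all 8 arrays, and Sox11 was the only gene with no such spot. Of all items tested, 44.5% had one.

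The upstream sequences were compared with binding motifs of the same factor classes. RefSeq entries (build GRCr8, from 250 bases before to 50 after the gene start) were matched by symbol for 7 of the 10 genes: Junb, Egr1, Sox11, Klf4, Klf6, Klf7 and Klf9. Motifs were searched on both strands and set beside the share of all 33469 promoters of the table that hold them. The core of the cAMP response element (CRE), TGACG, was in the windows of Junb, Egr1 and Klf9, and in 21.2% of all promoters. The AP-1 motif TGANTCA was in the window of Klf9, and in 7.33% of all promoters. The full CRE, TGACGTCA, which contains the core, was in none of the 7 and in 1.83% of all. The CArG box, which serum response factor binds, was in the windows of Egr1 and Klf6 and in 1.64% of all. The EGR motif GCGNGGGCG was in none of the 7 and in 4.98% of all promoters. The motif CACCC, which KLF proteins bind, was in 5 of the 7 and in 54.9% of all, and the SOX core AACAAT was in the window of Klf9 and in 11.7% of all. A match of letters is a description and not a site shown to be bound.

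Shown here are the windows of the genes with the lowest differences (Sox11 and Junb) and of Klf9, whose difference among the 7 matched was the highest in the main setting, by a narrow margin over Klf7 (both 0.14) and with a direction that depended on the spots taken, 5′ to 3′ on the strand of the gene, with the CRE core and the AP-1 motif in capitals. They lie at chr6:49738745-49739044 (minus strand), chr19:40080876-40081175 (plus strand) and chr1:230126396-230126695 (plus strand) of GRCr8. In Junb the core starts 155 bases before the gene start. In Klf9 the AP-1 motif starts 122 and the core 79 bases before it, and Sox11 has neither.
Sox11: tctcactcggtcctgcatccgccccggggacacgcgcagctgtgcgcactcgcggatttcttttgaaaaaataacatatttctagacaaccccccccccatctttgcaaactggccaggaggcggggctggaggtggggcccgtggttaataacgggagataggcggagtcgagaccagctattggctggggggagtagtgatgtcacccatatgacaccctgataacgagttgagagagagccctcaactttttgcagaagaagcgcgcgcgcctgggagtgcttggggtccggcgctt
Junb: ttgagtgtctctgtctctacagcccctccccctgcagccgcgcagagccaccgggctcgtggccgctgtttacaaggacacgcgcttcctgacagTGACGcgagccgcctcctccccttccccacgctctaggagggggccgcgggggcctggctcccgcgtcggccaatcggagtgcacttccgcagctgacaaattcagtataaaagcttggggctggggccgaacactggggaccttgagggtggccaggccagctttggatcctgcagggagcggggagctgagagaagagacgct
Klf9: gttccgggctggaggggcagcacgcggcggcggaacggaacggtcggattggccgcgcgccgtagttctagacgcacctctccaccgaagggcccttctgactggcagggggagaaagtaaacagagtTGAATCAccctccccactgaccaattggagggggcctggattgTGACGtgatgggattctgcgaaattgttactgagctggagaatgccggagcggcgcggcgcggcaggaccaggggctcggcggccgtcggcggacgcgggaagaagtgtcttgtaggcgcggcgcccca

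Relatives of the 10 genes were read from lists drawn up for these families. Among 17 measured of 26 other AP-1, ATF and related leucine zipper genes, 9 were higher and 8 lower in COH cells, with a median of 0.05, and none met the study's rule. Crem, a cAMP-responsive leucine zipper gene, was at -2.55 ± 0.40 (SD, n = 4) in control and -1.82 ± 0.49 in COH cells, higher in 4 of 4 pairs by 0.72 (limma adjusted p 0.915). Atf2, a JNK and p38 substrate, was lower in 3 of 4 pairs, with a difference of -0.91 (limma adjusted p 0.915). Among 15 measured of 18 other immediate early genes, 6 were higher and 9 lower, with a median of -0.13, and none met the rule. The nuclear receptor Nr4a1 differed by 0.66 and Myc by 0.51, both with a limma adjusted p of 0.915. Myc, which had 10 spots like Jun, was higher in 4 of 4 pairs, at -1.76 ± 0.17 in control and -1.25 ± 0.48 in COH cells (SD, n = 4). Its widest gap was also in pair 4, from -1.78 in control to -0.55 in COH cells.

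Of the KLF and SOX relatives, 2 met the study's rule and none passed the adjusted threshold. Klf12, a repressor of the KLF family, was lower in 4 of 4 pairs, at 1.90 ± 1.52 (SD, n = 4) in control and 0.30 ± 1.14 in COH cells, a difference of -1.60 ± 0.60 (SE; unadjusted p 0.0336, limma adjusted p 0.915). Sox12, a SoxC factor like Sox11, was higher in 3 of 4 pairs, at 0.80 ± 1.30 in control and 2.50 ± 1.28 in COH cells, a difference of 1.70 ± 0.64 (SE; unadjusted p 0.0326, limma adjusted p 0.915). Every spot of both genes had shared values on at least 1 array. The rule took 1 of 9 measured other KLF genes and 1 of 7 measured other SOX genes, where it took 4.73% of all items. The next gene of smallest p in each list was Klf15, with a difference of 0.62 and 4 of 4 pairs higher, and Sox18, with -0.85 and 4 of 4 pairs lower. Klf15 and Sox18 also had no spot with distinct values on all arrays. The medians were 0.09 for the KLF and -0.24 for the SOX relatives.

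Genes of the kinase pathways upstream of Jun and genes of the injury response gave no call either. The list for the DLK and JNK pathway held kinases, JNK scaffold genes such as Mapk8ip3, and the p38 gene Mapk14. Of its 16 genes 11 were measured, 4 of them higher and 7 lower in COH cells, with a median of -0.07. Map3k12, which encodes DLK, differed by 0.55 (unadjusted p 0.269). Map3k11, a mixed lineage kinase, differed by 0.83 and Mapk9, which encodes JNK2, by 0.57. Among 21 measured of 22 injury response and regeneration genes, 12 were higher and 9 lower, with a median of 0.08. The pro-apoptotic gene Bcl2l11 was lower in 4 of 4 pairs, with a difference of -0.78 ± 0.36 (SE; unadjusted p 0.0647), and Gadd45b, a stress gene, differed by 0.76. Gap43, the growth-cone protein, differed by 0.08. Mapk9 and Bcl2l11 had no spot with distinct values on all arrays. No gene of these lists had a limma adjusted p under 0.915.

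**Figure D4:**
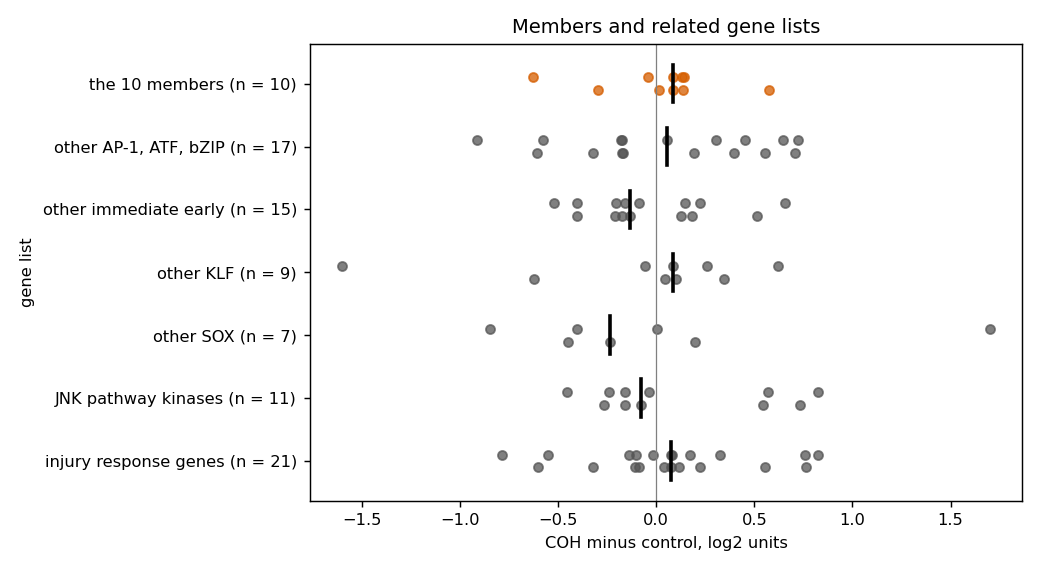
The COH minus control difference in log2 units is plotted for each measured gene of the 7 lists, with the 10 members in orange and the list median as a black bar. The members lie between -0.62 and 0.57, and the outermost points of the other lists are Klf12 (-1.60) and Sox12 (1.70).

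The label of the cells was set against markers. Of 21 RGC markers 14 were measured, with a median log2 ratio of 0.30 in control cells, and 4 of them exceeded the reference in every control sample while 1 lay below it. Photoreceptor markers had a median of 1.25 (6 of 15 measured), endothelial and pericyte markers 0.50 (6 of 12), microglia and macrophage markers 0.08 (14 of 18), bipolar and amacrine markers 0.01 (9 of 15), Muller glia markers -0.30 (12 of 14) and astrocyte markers -0.62 (8 of 10). These medians depend on the reference RNA and on the probes, so they do not rank the cell types in the samples. Pou4f1 and Pou4f2 were not among the genes measured on all arrays. Between COH and control cells 7 RGC markers were higher and 7 lower, with a median of -0.003. Of these Thy1 differed by -1.28 and Sncg by -0.10, and the markers with the highest differences, Tubb3 and Stmn2, by 0.83 and 0.55. Among the glial genes Gfap differed by 0.15 and Glul by 0.83, with list medians of 0.14 for astrocytes and -0.03 for Muller glia. Microglial Aif1 differed by 0.39, with a list median of 0.03. The study's rule took 5 markers, all lower in COH cells. From the RGC list it took Thy1, and from the microglia and macrophage list Cx3cr1 (-2.05, lower in 4 of 4 pairs). From the astrocyte list it took Slc1a2 (-1.24) and Aldh1l1 (-0.92), and from the bipolar and amacrine list Pax6 (-1.01). These were 1 of 14 RGC, 1 of 14 microglia and macrophage, 2 of 8 astrocyte and 1 of 9 bipolar and amacrine markers measured. Of all items the rule took 4.73%, 2.17% as lower. Thy1, Cx3cr1, Slc1a2, Gfap and Aif1 had no spot with distinct values on all arrays. Tubb3, Stmn2, Cx3cr1, Slc1a2, Aldh1l1 and Pax6 were chosen after their values were seen, and every marker named here had a limma adjusted p of at least 0.915. The list mean of the RGC markers ranged from -0.07 to 0.80 in control and from 0.08 to 0.59 in COH cells, and that of the microglia and macrophage markers from -0.43 to -0.24 and from -0.77 to -0.18. The part of other cell types in the levels of the 10 genes was not tested.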

How the data were processed

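RNA from purified RGCs was amplified and labelled with Cy5, and rat reference RNA with Cy3, per the labels' protocols. The deposited values are ratios, taken here to be on a log2 scale. Per the series' design text, the authors applied Lowess normalization over the whole array and locally, and kept genes that met Agilent's quality control. No source used here names software or versions. The base of the logarithm was inferred from frequent values spaced 2 apart (tolerance 2e-05). This spacing does not by itself settle the base, and every fold change given here rests on it. The direction follows the dyes in the labels. Array medians lay between -0.065 and 0.125. Of 45220 spots, 25353 had 1 gene symbol, 48 several and 19819 none. Symbols were updated through the gene identifier for 25306. Between 32101 and 42076 spots of an array had a value, and 22856 had one on all 8. Averaging spots of a gene left 18595 items, 9792 of them named genes.

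All 8 arrays entered one two-sided limma fit (limma 3.58.1, R 4.3.3) blocked by replicate number, and p-values were adjusted by Benjamini-Hochberg over all items. Pairing follows the design text, by which both samples of a group came from the same animals. Deviations of same-numbered arrays correlated at 0.09, 0.02, 0.06 and 0.03. Between a control and a COH array of unlike number, the correlation ran from -0.19 (control 1 with COH 2) to 0.09 (control 3 with COH 2). The same-numbered values lay inside this range, so they did not set the pairs apart. The spread behind the p-values is that of the 4 within-pair differences, drawn by the moderated fit towards the spread of all items. Precision is limited by the number of arrays. Signal intensities were not used. A value shared exactly by at least 3 spots of an array served as a sign of low signal. These values made up 50.9% to 59.5% of an array. The fit was tested on simulated data with independent normal noise and variances drawn from the fitted spread model. Those data held no pair effect, position trend or shared values, so they do not show how the fit behaves under these.

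The members and lists were chosen with earlier results of these data known. All 10 members were named; of each related list the 2 genes of smallest unadjusted p, besides Map3k12, Gap43 and the markers Thy1, Sncg, Aif1, Gfap and Glul; 1 further named item is not reported here. Alternatives covered scaling, pairing, filters on low signal and missing values, position on the array, array weights, the summary over spots, the spread model and each pair left out; dropping the Egr1 spot of highest value was added after seeing the data.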

Additional observations from a re-analysis of the deposited data

Results flagged for a closer look

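Samples far from the other 3 of their group were looked for in 36 groups of 4, made of the levels of the 10 genes in each group, their within-pair differences, the spread among the spots of Jun and Egr1, and the position trend of the arrays. Of these groups 1 had such a sample, where chance marks about 1 in 20. The SD among the 10 spots of Egr1 was 1.16 on control 1, while it was 0.143 to 0.309 on the other control arrays. The spot at 3.03 on that array is the one described with Egr1 above.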

How the results depend on the processing

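Each difference was recomputed under 13 to 17 alternatives, 148 values in all. Some alternatives could not move it. Dropping the replicate block or the sharing of the spread left every difference as it was. The median over spots did the same for genes with 1 or 2 complete spots, as did keeping distinct values only where all spots were distinct. Taking spots with at least 3 complete pairs moved the differences of Sox11 and Klf9 alone. No adjusted p was under 0.789, and 124 of the values kept their sign, the unmoved ones among them. Fos (0.26 to 0.85) and Sox11 (-0.90 to -0.23) kept theirs throughout. Egr1 turned to -0.031 with arrays centred on their median, -0.020 with quantile normalization, -0.086 with the position trend removed and -0.48 at its lowest single spot. Klf4 turned to -0.061 with quantile normalization, -0.022 with the position trend removed and -0.044 with array weights. Klf6 turned to -0.032 with the trend removed, -0.068 with the median of its spots and -0.27 at its lowest spot. Klf9 turned to -0.58 with spots of at least 3 complete pairs, the highest spot of Jun gave 0.28 and the lowest of Klf7 -0.070. Without the COH 4 array and with no pairing term Atf3 turned to -0.075, Junb to 0.080, Egr1 to -0.033 and Klf4 to -0.068. Leaving out 1 pair, or the COH 4 array alone, gave ranges of -0.17 to 0.34 (Atf3), -0.09 to -0.01 (Jun), -0.77 to 0.08 (Junb), 0.27 to 0.85 (Fos), -0.10 to 0.13 (Egr1), -0.90 to -0.23 (Sox11), -0.20 to 0.42 (Klf4), -0.11 to 0.19 (Klf6), 0.02 to 0.33 (Klf7) and -0.19 to 0.65 (Klf9). The cause of these changes of sign was not tested.

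Without the replicate block the differences of the 10 genes were the same and their adjusted p-values at least 0.977. No item passed limma's adjusted threshold and none of the 10 genes met the study's rule in any setting. The rule took 880 items (477 higher and 403 lower), 697 without the block, 369 higher and 472 lower with the trend removed, 431 with distinct values only (358 higher and 73 lower of 8278 tested), 566 with no sharing of the spread across genes and 541 without the COH 4 array and with no pairing term; with 1 pair left out it took 679 to 1079. The median of the 10 differences was -0.05 to 0.15 with 1 pair left out. Sox11 had no spot of distinct values, so that setting gave no value for it.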
